A study of Mus musculus with 6 samples.

Results

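The response to hemin was examined for 10 heat shock genes: the small heat shock proteins Hspb1, Hspb8 and Cryab, the co-chaperone Bag3, the cytosolic Hsp90 pair Hsp90aa1 and Hsp90ab1, the mitochondrial chaperonin Hspd1 (Hsp60) with its lid Hspe1 (Hsp10), and the heat shock transcription factors Hsf1 and Hsf2. They were taken by symbol, and all 10 were found among the 18753 annotated genes listed in any library. The cells were oligodendrocyte progenitor cells, the dividing precursors of myelin-forming oligodendrocytes, purified with magnetic beads against CD140 (PDGFRα) from the cortices of wild-type C57BL/6 pups labelled as aged 1 day after birth. They were expanded for 3 days. The 3 hemin libraries come from cells exposed to 50 µM hemin, the oxidised form of heme, for 12 h, and the 3 vehicle libraries from cells given 0.25% DMSO for 12 h. The title of the series sets the experiment in work on ferroptosis after bleeding in the brain. Nothing in the labels ties the replicates to separate cultures or litters. The p-values therefore reflect the spread among these libraries alone, and that spread may be technical.

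Small heat shock proteins bind unfolding proteins without ATP and hold them in a form that other chaperones can refold, and Bag3 links Hspb8 to Hsp70 and directs misfolded cargo to autophagy. Hsp90 matures and stabilises kinases and steroid receptors, while Hsp60 and Hsp10 form a chamber in which imported mitochondrial proteins fold. When proteins unfold, Hsf1 is released from chaperones, forms trimers and binds heat shock elements, which are inverted repeats of the unit nGAAn in the promoters of chaperone genes. Hsf1 is regulated mainly at the level of the protein, and Hsf2, which can form mixed trimers with it, mainly through its abundance. Cryab is abundant in mature oligodendrocytes and in astrocytes.

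Promoter sequence is shown for Hspb1, Hspb8 and Bag3, those of the 10 genes with the largest log2 changes below. It is also shown for Hspe1, which lies head to head with Hspd1. RefSeq promoter windows of assembly GRCm38.p6, from 250 bases before to 50 bases after a gene start, were at hand for 6 of the 10 genes, in 7 windows (Hspd1 has 2). The windows were searched on both strands for the 2-unit repeats GAANNTTC and TTCNNGAA, and the capitals below mark the matches. Each sequence runs 5′ to 3′ on the strand of its gene. Positions are those of GRCm38.p6 and not of the build behind the deposited values.
Hspe1, plus strand, chr1:55087898-55088147, the 250 bases before its start: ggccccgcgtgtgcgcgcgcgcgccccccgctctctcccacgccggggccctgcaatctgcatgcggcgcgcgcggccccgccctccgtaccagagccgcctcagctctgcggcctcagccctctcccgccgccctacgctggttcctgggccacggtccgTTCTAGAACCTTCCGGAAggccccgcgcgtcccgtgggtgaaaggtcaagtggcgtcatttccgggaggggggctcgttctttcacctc
Hspb1, plus strand, chr5:135887669-135887918, the 250 bases before its start: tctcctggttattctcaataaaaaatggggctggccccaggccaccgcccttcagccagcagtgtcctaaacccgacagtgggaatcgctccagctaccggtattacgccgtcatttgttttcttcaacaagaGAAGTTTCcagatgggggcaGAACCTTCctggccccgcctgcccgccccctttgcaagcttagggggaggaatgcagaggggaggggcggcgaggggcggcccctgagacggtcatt
Hspb8, minus strand, chr5:116422844-116422873, 30 bases across its start: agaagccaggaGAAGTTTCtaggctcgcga
Bag3, plus strand, chr7:128523614-128523632, 19 bases after its start: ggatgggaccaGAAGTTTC

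The Hspe1 window holds 3 overlapping matches that join into 4 units in a row, beginning 89 bases before the start. The same 18 bases lie in 1 of the 2 Hspd1 windows, read on the minus strand as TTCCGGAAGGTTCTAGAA from 144 bases before a start. Hspd1 is annotated with starts at 55087932 and 55088243 on the minus strand of chromosome 1, that is 216 bases before and 95 bases beyond the Hspe1 start at 55088148, so one of its starts lies inside Hspe1. The strand of the libraries is not stated, and reads from such an overlap cannot be told apart. Runs of 4 units, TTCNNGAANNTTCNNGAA or its counterpart that opens with GAA, occurred in 8 of 32851 promoter windows (0.0244%), the Hspd1 and Hspe1 windows among them. Hspb1 holds GAANNTTC at 117 and at 97 bases before its start. Hspb8 and Bag3 each hold the letters GAAGTTTC, from base 3 and base 43 of the transcript. A 2-unit match of either kind was found in 5 of the 7 windows, the other Hspd1 window and that of Hsf2 having none, and in 15.1% of all windows. Counted by gene, 5 of the 6 members and 17.0% of all genes with a window held one. Hspd1 and Hspe1 are counted separately in these numbers, although their matches are the same 18 bases. These matches describe the letters of the windows, not binding.

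Hemin raised 9 of the 10 genes and lowered none, at an adjusted p below 0.05 (edgeR's quasi-likelihood test, Benjamini-Hochberg). Of all 12783 genes tested in the same fit, 16.2% rose and 15.7% fell, together 31.9%. The rise was over 2-fold for 7 of the 10, and for 7.46% of all genes tested. Hsf1 alone among the 10 did not pass. Hspb1, among the 9, met the filter on low counts through the hemin libraries alone. The same 9 genes had every hemin library above every vehicle library, a pattern that 21.5% of tested genes showed, while 27.6% had every hemin library below every vehicle library. The median log2 fold change was 1.22 over the 10 genes and 0.00 over all genes tested. The scaling used sets the bulk of genes near 0, so that 0.00 is not a separate finding. With libraries scaled by their totals alone, the median over all genes tested was -0.088. Among the 10 genes, the counts of those lower were 0 at an unadjusted p below 0.05 in edgeR, and 0 at an adjusted p below 0.05 in DESeq2 and in limma. Without 1 library at a time, 6 to 9 of the 10 genes passed as higher, with 6 without vehicle replicate 1 or vehicle replicate 2. The genes that lost their call were Cryab, Hspd1 and Hsf2. Because these are bulk libraries, fewer cells of a type and less RNA per cell cannot be told apart.

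**Figure D1:**
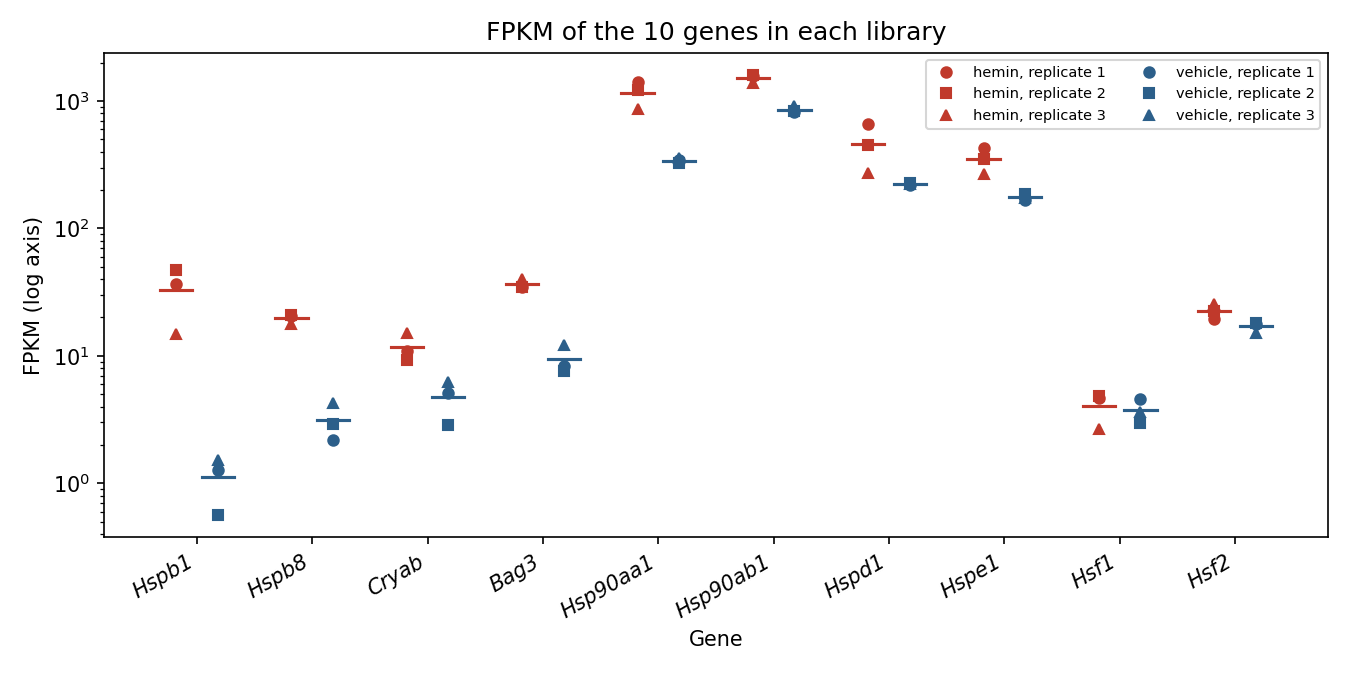
FPKM (fragments per kilobase of transcript, scaled to library size; log axis) of the 10 genes in each of 3 hemin (left) and 3 vehicle (right) libraries; symbols mark replicates and lines the group means. The hemin libraries lie above the vehicle libraries for 9 genes and overlap with them for Hsf1.

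The libraries held 6463460 to 6523639 expected counts over annotated genes with hemin and 6339966 to 6390691 with vehicle, so depth differed little. Hmox1, the heme-degrading enzyme induced by hemin, stood at 3045, 2298 and 2456 FPKM in hemin replicates 1 to 3 and at 19.8, 15.8 and 28.7 FPKM in vehicle replicates 1 to 3. The 8 progenitor markers chosen summed to 356 to 532 FPKM with hemin and 1148 to 1382 FPKM with vehicle, with 7 of the 8 lower. Of 4 tested markers of mature oligodendrocytes, 1 fell and 3 did not pass. The list summed to 26.9 to 39.5 FPKM with hemin and 34.5 to 58.7 FPKM with vehicle, with Mog not listed in any library and Mag and Mobp at 0.390 FPKM or less in each. Astrocyte markers summed to 380 to 514 FPKM with hemin and 459 to 550 FPKM with vehicle, 1 of 8 higher and 3 lower. Neuron markers summed to 110 to 146 FPKM with hemin and 179 to 203 FPKM with vehicle, 1 of 8 higher and 2 lower. Microglia markers summed to 18.4 to 22.8 FPKM with hemin and 8.32 to 13.9 FPKM with vehicle, with 2 of 6 tested higher. These were Itgam and Tyrobp, and Tyrobp met the filter on low counts only through the hemin libraries. Endothelial and mural markers summed to 7.40 to 12.3 FPKM with hemin and 3.58 to 6.68 FPKM with vehicle, with 3 of 6 tested higher. Those 3 were Pecam1, Kdr and Tek, which met the filter on low counts only through the hemin libraries, where they are high. Flt1, Pdgfrb and Rgs5 did not pass (edgeR adjusted p = 0.113, 0.530 and 0.948). Pecam1 stood at 1.78, 2.16 and 3.08 FPKM with hemin, against 0.150, 0.170 and 0.140 FPKM with vehicle (15.8-fold, edgeR adjusted p = 0.00042). Kdr stood at 1.18, 0.710 and 0.550 FPKM with hemin, against 0.20, 0.10 and 0.22 FPKM with vehicle (4.82-fold, edgeR adjusted p = 0.00825), and Tek, with 13, 29 and 23 counts with hemin and 2, 2 and 1 with vehicle, had an edgeR adjusted p of 0.00215. The endothelial Cldn5 and Cdh5 were at 0.250 FPKM or less in every library. With vehicle the progenitor sum was above that of every other list, whereas with hemin it overlapped with the astrocyte sum. The part of these markers' cells in the changes below was not tested.

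Hspb1, the ATP-independent chaperone also known as Hsp25 in mice, showed the widest change of the 10. It stood at 36.5, 47.2 and 14.75 FPKM in hemin replicates 1 to 3, against 1.27, 0.560 and 1.53 FPKM in vehicle replicates 1 to 3. The lowest hemin library was still several times the highest vehicle library, yet the hemin libraries differed among themselves, replicate 3 being the low one. The change was 30.1-fold (log2 fold change 4.91 ± 0.56, SE, edgeR adjusted p = 0.00114), rank 36 from the top of the tested genes. Behind the vehicle values lie 9, 4 and 11 counts, and behind the hemin values 263, 334 and 104, so the size of the fold rests on few vehicle reads. The vehicle counts would not have met the filter on low counts, so the gene was tested only because it is high with hemin. On the log2(FPKM + 1) scale, which compresses low values, limma gave 3.88.

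Hspb8, the partner of Bag3 in autophagy of misfolded proteins, stood at 20.6, 20.95 and 17.7 FPKM with hemin, against 2.19, 2.94 and 4.24 FPKM with vehicle. The hemin libraries lay close together and well above all vehicle libraries. The rise was 6.55-fold (log2 fold change 2.71 ± 0.25, SE, edgeR adjusted p = 0.000577). Bag3 itself stood at 34.7, 34.8 and 39.8 FPKM with hemin, against 8.33, 7.67 and 12.1 FPKM with vehicle. It was likewise even across hemin libraries, with no overlap between groups, and rose 4.02-fold (log2 fold change 2.01 ± 0.18, SE, edgeR adjusted p = 0.000556). In both genes replicate 3 was the highest of the vehicle libraries.

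Cryab, the αB-crystallin that keeps intermediate filaments and other proteins soluble, stood at 10.85, 9.29 and 15 FPKM with hemin, against 5.08, 2.85 and 6.28 FPKM with vehicle. The groups did not overlap, but the gap between them was narrow. The rise was 2.51-fold (log2 fold change 1.33 ± 0.34, SE, edgeR adjusted p = 0.0222). The call was lost without hemin replicate 3 (edgeR adjusted p = 0.0669), vehicle replicate 1 (0.063) or vehicle replicate 2 (0.0507). The deposited tables split Cryab over 3 RefSeq transcripts. NM_009964 stood at 4.91, 5.57 and 9.05 FPKM with hemin and at 2.90, 1.80 and 5.31 FPKM with vehicle. NM_001289784 stood at 1.73, 3.72 and 2.54 FPKM with hemin and at 2.18, 0.510 and 0.970 FPKM with vehicle. NM_001289785 was listed at 4.21, 0 and 3.41 FPKM with hemin and at 0, 0.540 and 0 FPKM with vehicle. Each transcript overlapped between the groups, and only their sum separated them.

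Hsp90aa1, the stress-inducible cytosolic Hsp90, stood at 1406, 1217 and 865 FPKM with hemin, against 343, 323 and 354 FPKM with vehicle. Every hemin library was more than double the highest vehicle library, with replicate 3 the lowest of them. The rise was 3.56-fold (log2 fold change 1.83 ± 0.19, SE, edgeR adjusted p = 0.000901), and by mean FPKM the gene ranked 30 among all listed genes with hemin and 119 with vehicle. Hsp90ab1, the constitutive paralog, stood at 1564, 1596 and 1369 FPKM with hemin, against 823, 830 and 909 FPKM with vehicle. It was the most abundant of the 10 in every library and rose 1.84-fold (log2 fold change 0.88 ± 0.11, SE, edgeR adjusted p = 0.00139). Quantile normalization, which pulls the top of every library to the same values, gave a log2 change of 0.43 (limma adjusted p = 0.0228).

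Hspd1, the barrel subunit of the mitochondrial chaperonin, stood at 659.9, 454 and 274 FPKM with hemin, against 219.6, 228 and 223 FPKM with vehicle. The vehicle libraries were nearly equal, whereas the hemin libraries were spread widely, replicate 1 high and replicate 3 not far above vehicle. The rise was 2.17-fold (log2 fold change 1.11 ± 0.30, SE, edgeR adjusted p = 0.0258). Omitting hemin replicate 2 (edgeR adjusted p = 0.0627) or any vehicle replicate (0.0736, 0.0685 and 0.0633 for replicates 1 to 3) ended the call, as did limma after quantile normalization (0.112) or without a filter (0.0583). Without hemin replicate 1 the log2 fold change was 0.73. Hspe1, the lid of the same complex, stood at 427, 353 and 268 FPKM with hemin, against 168, 185 and 174 FPKM with vehicle. Its hemin libraries ran in the same order as those of Hspd1 but were less spread, and it rose 2.09-fold (log2 fold change 1.06 ± 0.18, SE, edgeR adjusted p = 0.00479).

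Hsf1, the main activator of heat shock genes, stood at 4.65, 4.86 and 2.66 FPKM with hemin, against 4.62, 2.95 and 3.64 FPKM with vehicle. The groups overlapped, and the change did not pass (log2 fold change 0.18 ± 0.30, SE, edgeR adjusted p = 0.688). Hsf2 stood at 19.6, 22.3 and 25.3 FPKM with hemin, against 17.8, 18.2 and 15.1 FPKM with vehicle. Its hemin libraries lay just above the vehicle ones, for a 1.36-fold rise (log2 fold change 0.44 ± 0.12, SE, edgeR adjusted p = 0.0295). That call was the least stable of the 9. Omitting hemin replicate 2 or 3 ended it (edgeR adjusted p = 0.0764 and 0.0784), as did omitting vehicle replicate 1, 2 or 3 (0.0727, 0.064 and 0.0822). It was also lost with library totals alone (edgeR adjusted p = 0.0724), without a filter on low counts (0.053), when replicate numbers entered as blocks (0.0636), and with limma at a pseudocount of 1 (0.0542), of 0.1 (0.0557) or without a filter (0.0703).

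**Figure D2:**
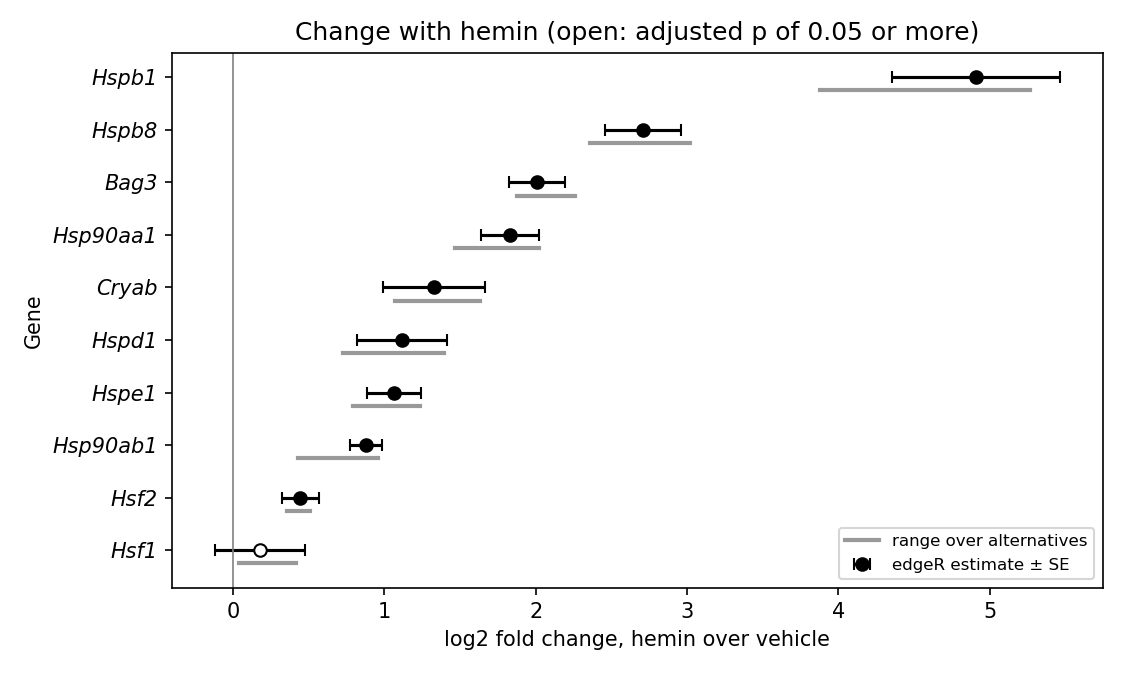
Log2 fold change of each gene, hemin over vehicle, as the edgeR estimate with its SE (points and whiskers) and the range over 16 alternative settings (grey lines). Hspb1 is at the top with 4.91 and Hsf1, the open point, at the bottom with 0.18.

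The order of levels, per length, changed with hemin in its lower part. With hemin the mean FPKM ran Hsp90ab1, Hsp90aa1, Hspd1, Hspe1, Bag3, Hspb1, Hsf2, Hspb8, Cryab and Hsf1. In hemin libraries the ranges of 5 neighbouring pairs overlapped, namely Hsp90ab1 with Hsp90aa1, Hspd1 with Hspe1, Bag3 with Hspb1, Hspb1 with Hsf2 and Hsf2 with Hspb8. With vehicle it ran Hsp90ab1, Hsp90aa1, Hspd1, Hspe1, Hsf2, Bag3, Cryab, Hsf1, Hspb8 and Hspb1, and the ranges of Cryab with Hsf1 and of Hsf1 with Hspb8 overlapped. By mean FPKM Hspb1 ranked 1894 among all listed genes with hemin and 11088 with vehicle. The 10 genes together took 1.36%, 1.21% and 0.931% of the expected counts in hemin replicates 1 to 3, against 0.518%, 0.515% and 0.562% in vehicle replicates 1 to 3. Hsp90aa1, Hsp90ab1, Hspd1 and Hspe1 made up 96.0% to 97.0% of the summed FPKM of the 10 with hemin and 97.5% to 97.8% with vehicle.

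The 10 genes differed in level among the hemin libraries, and whether this spread is technical was not tested. Replicate 3 was the lowest hemin library for 7 of the 10 genes, with Hspb1 at 0.45, Hspd1 at 0.59 and Hsp90aa1 at 0.74 of the mean of the hemin group. Cryab, Bag3 and Hsf2 ran the other way and were highest there, at 1.28, 1.09 and 1.13 of that mean. Among the vehicle libraries, replicate 3 was the highest for 6 of the 10 genes. How often either order occurs over all tested genes was not counted, so these counts do not set the 10 genes apart. The inducible Hsp70 gene Hspa1a stood at 388, 485 and 160 FPKM in hemin replicates 1 to 3, against 0.530, 0.340 and 0.840 FPKM in vehicle replicates 1 to 3. Its near-identical copy Hspa1b stood at 316, 350.4 and 119 FPKM with hemin, against 0.730, 0.590 and 0.840 FPKM with vehicle. Both had the same high and low hemin libraries as Hspb1, whereas Hmox1 had its replicate 3 between the others. Reads can be shared between such near-identical copies, so Hspa1a and Hspa1b are not separate observations. The coefficient of variation of Hspd1 was 41.8% over the hemin libraries and 1.85% over the vehicle libraries, and that of Hsp90aa1 was 23.6% with hemin and 4.58% with vehicle. Bag3 and Hspb8 showed the opposite, with 8.0% and 8.96% over the hemin libraries and 25.5% and 33.2% over the vehicle libraries.

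**Figure D3:**
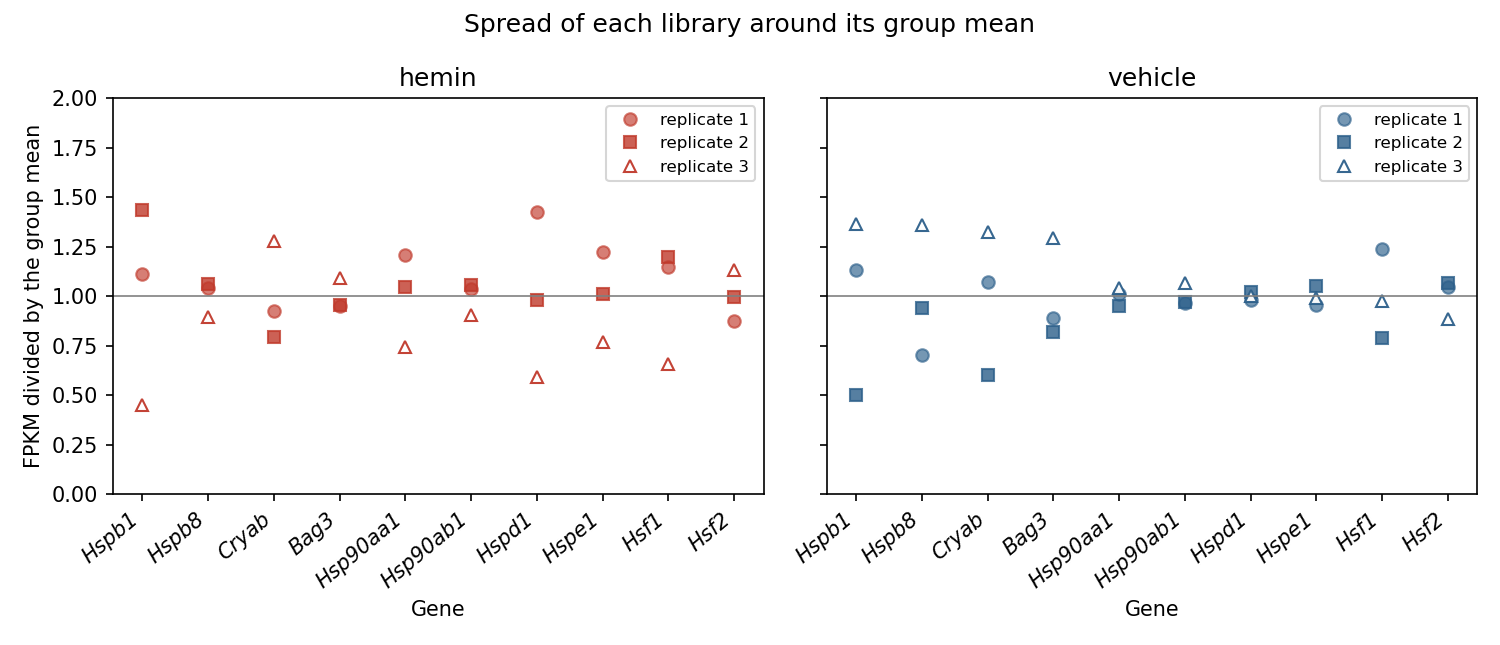
FPKM of each library divided by the mean of its group, for the 10 genes, in hemin (left) and vehicle (right) libraries. With hemin, replicate 3 (open triangles) lies lowest for 7 genes, down to 0.45 for Hspb1, while Cryab, Bag3 and Hsf2 are highest in it.

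Ratios within a library do not depend on how libraries are scaled, and 5 pairs of genes were compared in this way. With 3 libraries against 3, the smallest two-sided exact permutation p is 0.1, which is 0.167 after Benjamini-Hochberg adjustment over these pairs, so none could pass. Hsp90aa1 over Hsp90ab1 was 0.899, 0.763 and 0.631 in hemin replicates 1 to 3, against 0.417, 0.390 and 0.390 in vehicle replicates 1 to 3. The inducible paralog thus came closer to the constitutive one in each hemin library than in any vehicle library (log2 difference 0.92, exact permutation p = 0.1). Cryab over Hspb1 was 0.297, 0.197 and 1.02 with hemin, against 4.00, 5.09 and 4.10 with vehicle (log2 difference -3.49, exact permutation p = 0.1). Without hemin replicate 3 the log2 difference was -4.18, and over all single omissions it ran between -4.18 and -2.99. Cryab was the more abundant of these small heat shock proteins in all vehicle libraries, and Hspb1 in 2 of the 3 hemin libraries. The vehicle ratios divide by Hspb1 values that rest on 9, 4 and 11 counts. Hspb1 was tested only because it is high with hemin, so this ratio restates its rise and adds no support to it. Hspb8 over Bag3 was 0.595, 0.601 and 0.445 with hemin, against 0.263, 0.383 and 0.351 with vehicle, again without overlap (log2 difference 0.72, exact permutation p = 0.1).

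Hspe1 over Hspd1, the head-to-head pair, was 0.647, 0.777 and 0.981 with hemin, against 0.765, 0.812 and 0.777 with vehicle. The groups overlapped, with vehicle values inside the hemin range (log2 difference 0.01, exact permutation p = 0.9). The SD of the log2 ratio was 0.30 with hemin and 0.04 with vehicle. Without hemin replicate 1 and 3 in turn the difference was 0.15 and -0.15. Hsf1 over Hsf2 was 0.237, 0.218 and 0.105 with hemin, against 0.259, 0.162 and 0.241 with vehicle (log2 difference -0.30, exact permutation p = 0.5). The groups overlapped here too, and without hemin replicate 3 the difference was 0.07.

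**Figure D4:**
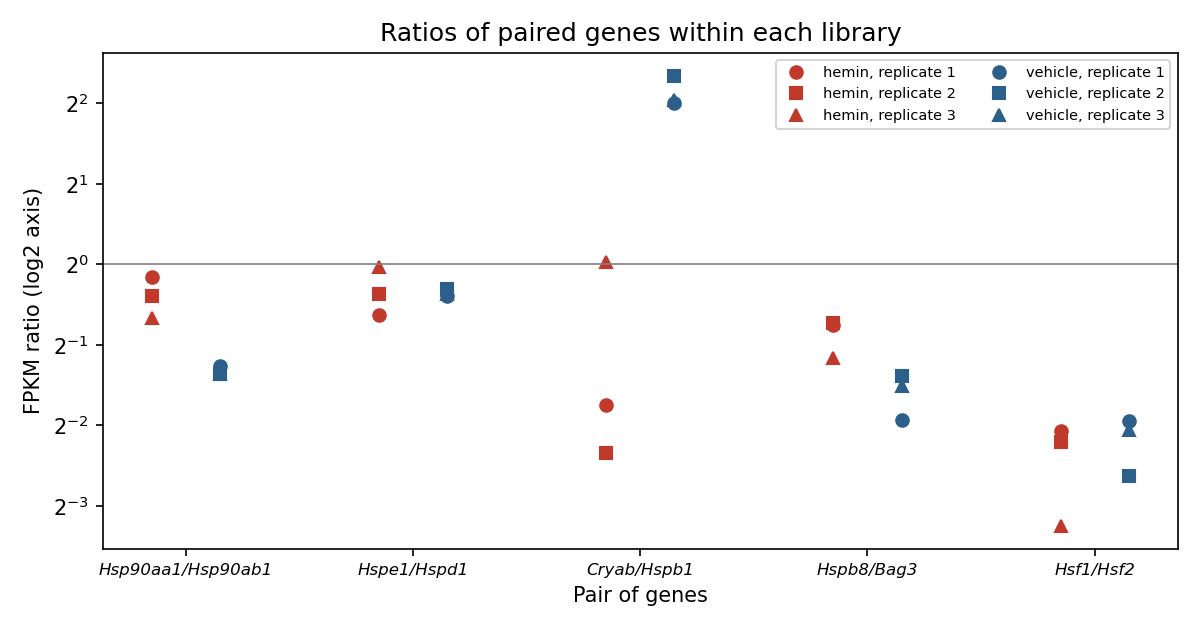
Ratio of FPKM between paired genes within each library (log2 axis), hemin left and vehicle right; the line marks equal levels. The groups separate for 3 pairs, Cryab over Hspb1 by the widest margin (log2 difference -3.49), and 2 pairs overlap. The vehicle values of Hspb1 rest on 9, 4 and 11 counts.

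Among the other Hsp90 paralogs, Hsp90b1, the form in the endoplasmic reticulum, stood at 300.5, 337 and 285 FPKM with hemin, against 266, 237 and 229.7 FPKM with vehicle (log2 fold change 0.39 ± 0.10, SE, edgeR adjusted p = 0.0256). Its groups did not overlap, but 6 of the alternatives ended the call, among them the omission of hemin replicate 2 (edgeR adjusted p = 0.0851) and vehicle replicate 2 or 3 (0.0925 and 0.0764). Trap1, the mitochondrial form, stood at 38.5, 43.9 and 39.9 FPKM with hemin, against 36.75, 34.3 and 32.8 FPKM with vehicle, and did not pass (edgeR adjusted p = 0.0516). It passed without hemin replicate 1 (edgeR adjusted p = 0.044), with TMM factors computed without the chaperone lists (0.0403) and with DESeq2 (adjusted p = 0.037).

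Of 23 co-chaperones of Hsp90, 6 rose, 2 fell and 15 did not pass, with a median log2 fold change of 0.19. The 8 that passed are a share close to the 31.9% of all tested genes, so the count does not set the list apart. Stip1, which hands clients over from Hsp70 to Hsp90, stood at 233, 228 and 182 FPKM with hemin, against 135, 133 and 132 FPKM with vehicle (log2 fold change 0.74, edgeR adjusted p = 0.0044). Ppid, a cyclophilin of the Hsp90 complex, rose by 0.93 on the log2 scale (edgeR adjusted p = 0.00326). Chordc1, a co-chaperone with zinc-binding CHORD domains, was named after its values were seen, as the largest rise of the list. It stood at 103.9, 65.6 and 39.2 FPKM with hemin, against 18.5, 19.9 and 14.7 FPKM with vehicle (log2 fold change 2.04 ± 0.35, SE, edgeR adjusted p = 0.00516). Its high and low hemin libraries were those of Hspd1. The 2 that fell were Cdc37l1, a relative of the kinase co-chaperone Cdc37 (log2 fold change -0.85, edgeR adjusted p = 0.000818), and Fkbp5, an immunophilin that dampens steroid receptors (log2 fold change -0.44, edgeR adjusted p = 0.0148). Fkbp5, named after its values were seen, did not pass when vehicle replicate 1, 2 or 3 was omitted (edgeR adjusted p = 0.053, 0.0628 and 0.0518). The other 3 that rose, also named after their values were seen, were Ptges3, Ahsa1 and Fkbp4, and Ahsa1 lost its call under 5 alternatives and Fkbp4 under 11. Unc45a, a chaperone of myosin, had the largest change against the list, at 0, 0.450 and 2.87 FPKM with hemin and 2.23, 3.17 and 2.16 FPKM with vehicle, and did not pass (edgeR adjusted p = 0.426). Without hemin replicate 3 it passed as lower (edgeR adjusted p = 0.037). That call rests on 0 and 13 counts in hemin replicates 1 and 2, and such a 0 can be a failed estimate.

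Of 13 other mitochondrial chaperones and proteases, 3 rose and 10 did not pass, with a median log2 fold change of 0.16. Of all tested genes 16.2% rose and 31.9% passed in either direction, so this count does not set the list apart either. Hspa9, the mitochondrial Hsp70 that passes proteins on to Hsp60, stood at 429.8, 278 and 236 FPKM with hemin, against 166, 159 and 169 FPKM with vehicle (log2 fold change 1.00 ± 0.23, SE, edgeR adjusted p = 0.0147). Like Hspd1 and Hspe1, it was highest in hemin replicate 1 and lowest in hemin replicate 3. Grpel1, its nucleotide exchange factor, rose by 0.43 on the log2 scale (edgeR adjusted p = 0.0287), and Clpp, a matrix protease, by 0.48 (0.0381). Both calls were lost without hemin replicate 2 or 3 (edgeR adjusted p = 0.0902 and 0.0535 for Grpel1, 0.0993 and 0.0967 for Clpp) and without vehicle replicate 1 or 2 (0.103 and 0.0853 for Grpel1, 0.135 and 0.126 for Clpp). Htra2, a protease of the intermembrane space, had the largest change against the list without passing (log2 fold change -0.30, edgeR adjusted p = 0.325).

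Of 5 other BAG proteins, 1 rose, 1 fell and 3 did not pass, with a median log2 fold change of -0.06. As 16.2% of all tested genes rose and 15.7% fell, these counts do not set the list apart. Bag2, an inhibitor of the ubiquitin ligase CHIP, rose by 0.54 on the log2 scale (edgeR adjusted p = 0.042), a call that was lost under 10 of the 16 alternatives, with an edgeR adjusted p of 0.127 without hemin replicate 2, 0.0617 without hemin replicate 3, and 0.133, 0.123 and 0.0649 without vehicle replicates 1 to 3. Bag4 stood at 5.47, 4.49 and 4.88 FPKM with hemin, against 10.04, 9.43 and 8.49 FPKM with vehicle (log2 fold change -0.86, edgeR adjusted p = 0.00382). It thus moved against Bag3. Bag1 did not pass (log2 fold change 0.35, edgeR adjusted p = 0.111), but did without hemin replicate 1 (0.0164) and when replicate numbers entered as blocks (0.0467).

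Of 7 other genes named as small heat shock proteins, 2 had enough counts to be tested and neither passed. Hspb6 stood at 11.95, 15.05 and 25.55 FPKM with hemin, against 12.8, 13.3 and 19.7 FPKM with vehicle (log2 fold change 0.24, edgeR adjusted p = 0.573). Hspb11 was listed at 0, 14.4 and 11.3 FPKM with hemin and at 6.78, 8.46 and 8.89 FPKM with vehicle (log2 fold change 0.14, edgeR adjusted p = 0.927), and a 0 beside such values can be a failed estimate. Hspb2 was not listed in any library. Of 6 other heat shock factors and proteins that bind them, only Hsbp1, a negative regulator of Hsf1 trimers, was tested, at 89.3, 109.9 and 141 FPKM with hemin and 116, 117 and 128 FPKM with vehicle (log2 fold change -0.04, edgeR adjusted p = 0.875). The others, Hsf3, Hsf4 and Hsf5 among them, stood at 0.290 FPKM or less in every library.

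**Figure D5:**
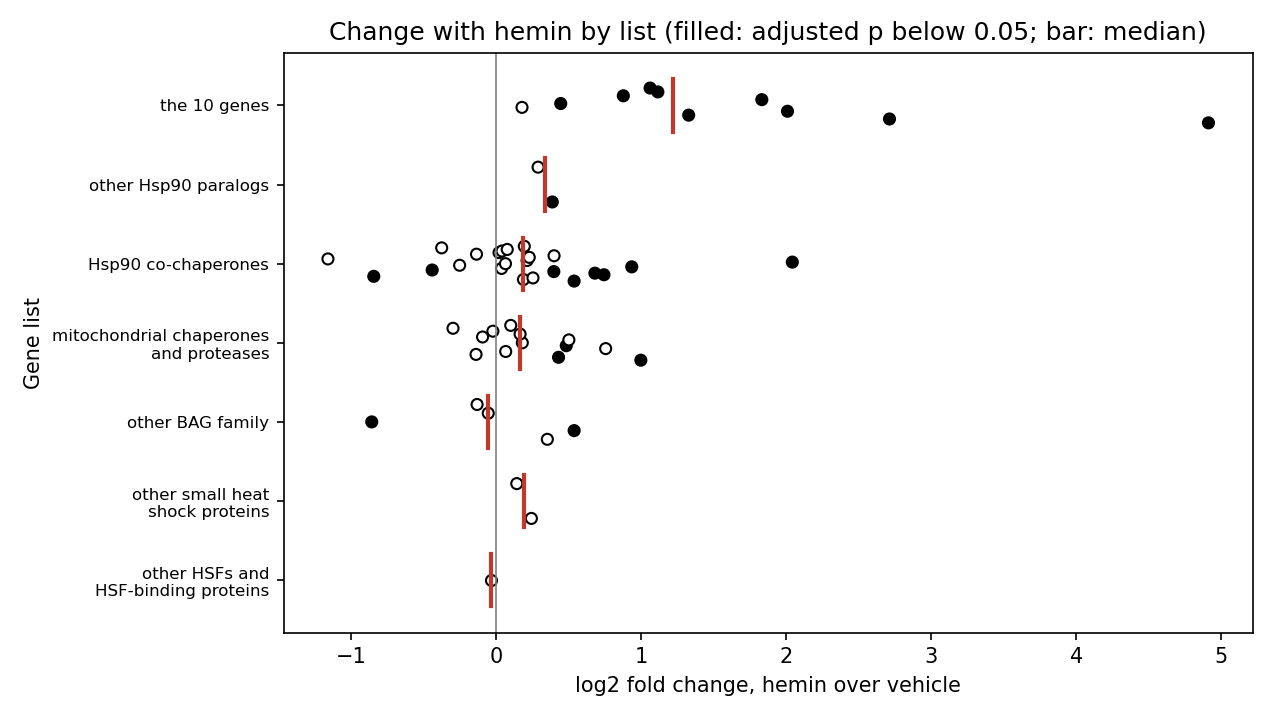
Log2 fold change, hemin over vehicle, of each tested gene by list; filled points had an adjusted p below 0.05 and red bars mark medians. The median of the 10 genes is 1.22, against 0.19 for the Hsp90 co-chaperones and 0.16 for the mitochondrial list.

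Hspb1 was the member with the largest change, and the genes whose log2(FPKM + 1) followed it most closely over the 6 libraries were sought among 7690 tested genes with a mean of at least 5 FPKM. The 5 with the highest Pearson r, given as a description, were Mphosph10 (0.9994), Wdr75 (0.9991), Ahcyl2 (0.9987), Atp6v1c1 (0.9981) and Atp6v1h (0.9970). All share the step between the treatments and the low hemin replicate 3 with Hspb1, but their own levels moved far less. Mphosph10, for example, stood at 40.5, 41.8 and 34.0 FPKM with hemin, against 23.95, 22.9 and 24.65 FPKM with vehicle.

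Reads of some members can be shared with other genes. Of the 30-base stretches in the longest coding transcript of GENCODE vM21, 63.2% for Hsp90aa1, 18.1% for Hsp90ab1, 56.5% for Hspd1, 48.99% for Hspe1 and 56.9% for Hspb1 also occur in transcripts of other annotated genes. Names of pseudogenes or predicted genes (containing -ps or beginning with Gm) made up 8 of the 17 other genes for Hsp90aa1, 15 of 17 for Hsp90ab1, 18 of 19 for Hspd1, 6 of 7 for Hspe1 and the 1 for Hspb1. The annotation among which RSEM shared out such reads is not stated, so the levels of these 5 genes are uncertain, by an amount that was not measured. Hsp90aa1 and Hsp90ab1 have 4 such stretches in common. For Hspb8, Cryab and Bag3 no stretch was shared, and for Hsf1 and Hsf2 the share was 0.530% and 0.466%.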

How the data were processed

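RNA was extracted with Trizol, enriched for mRNA, amplified by PCR and sequenced on Illumina libraries, per the labels' protocols. Per the submitters' processing notes the authors used Bowtie 0.12.2 and RSEM, with builds mm8 and mm9 named. The sources used here do not state the annotation, read filters or library strand. Per the file headers, the deposited tables of annotated transcripts hold expected counts, which are not scaled, and FPKM, which the authors scaled by length and library size. Tables of unannotated features were not used. Values were summed per Entrez gene, absent transcripts set to 0, and 18706 of 18753 genes matched a RefSeq symbol (GRCm38.p6). Levels are FPKM. Expected counts were rounded and tested, hemin against vehicle, in edgeR 4.0.16 (R 4.3.3; filterByExpr, TMM, glmQLFit and glmQLFTest, two-sided, Benjamini-Hochberg), and SE is the log2 fold change over the square root of F. The filter can be passed through 1 group alone, as Hspb1 did among the 10 genes, through hemin. Ratios were tested by exact permutation. Alternatives used limma 3.58.1 with a trend on log2(FPKM + 1) or log2(FPKM + 0.1), and DESeq2 1.42.0. The test functions were tried on simulated counts. Members and lists were chosen with earlier results of these data known. Named genes are the 10 members, per list up to 3 with the smallest p and the largest change against its direction, and the 5 genes most like the member that changed most. Replicates differed by more than counting error (chi-square over its degrees of freedom between 5.58 and 23.4), so none was treated as a duplicate.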

Additional observations from a re-analysis of the deposited data

How the results depend on the processing

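Of 160 comparisons of a member with an alternative setting, 140 kept their side of the threshold and 20 fell short of it, those of Cryab (3), Hspd1 (6) and Hsf2 (11), and none changed sign. The number of members called higher was 9 with upper-quartile scaling, DESeq2, or TMM factors computed without the chaperone lists (added after the data were seen), 8 with library totals alone, without a filter, with the replicate block or with 3 of the 4 limma settings, and 7 with limma without a filter. Without 1 library at a time it was 6 to 9, and the members called lower stayed at 0. The genes called, hemin against vehicle, numbered 4076, and 2552 to 4527 without 1 library at a time, with 2591 without vehicle replicate 1 and 2552 without vehicle replicate 2. With totals alone 1713 rose and 2582 fell, against 2070 and 2006 with TMM. Same-numbered libraries deviated together with correlations of 0.06, 0.10 and 0.16 in hemin and vehicle replicates 1 to 3, each the highest for its number, but not all above 0.1, so they were not taken as pairs. The replicate block left 3730 genes called and ended the call of Hsf2 among the members. Depth limits Hspb1 most, with 4 to 11 vehicle counts.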
